A study of Sus scrofa with 8 samples.

Results

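The cells described here were EPCAM+ cells of pig embryos, chosen by marker genes of epithelia and taken from single-cell RNA libraries of somites and myotome. A cell was counted as EPCAM+ when it held at least 1 unique molecule (UMI) of EPCAM together with at least 1 UMI of CDH1, CLDN4 or CLDN7. It also had to show at least 200 genes, at most 30000 UMIs and at most 10% of its UMIs on the 13 mitochondrial genes. Of 82394 cells that passed these limits, 2193 (2.66%) met the rule. The cells were chosen by the raw UMIs of these 4 marker genes, so their levels in these cells are given as a description with no test. The samples were 8 libraries, 1 for each of 4 stages and 2 breeds: somites at embryonic day 16 (E16), 18 (E18) and 21 (E21) and myotome at E28, from Tibetan pigs (ZZ) and from Duroc crossed with Tibetan pigs (DZ). Each library was a pool of 5 embryos of 1 sow, so stage, breed and sow differ together and tests over libraries measure only the spread between these pools.

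EPCAM is a membrane glycoprotein of epithelial cells that takes part in adhesion between neighbours. CDH1, the epithelial cadherin, forms adherens junctions, and CLDN4 and CLDN7 are claudins, the proteins that seal tight junctions. In the early embryo such cells make up the surface ectoderm that becomes skin, the gut endoderm, the yolk sac endoderm, the nephric duct and the placodes of sense organs. Somites are blocks of paraxial mesoderm beside the neural tube, and the myotome is the part of them that forms muscle.

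The sum of UMIs over cells that passed ran from 47651997 to 66696834 per library. EPCAM+ cells were deeper than the other cells of their library, with median UMI counts of 6865 to 10350 against 3890 to 6031 in the 7 libraries that held any. A doublet score marked 213 of the 2193 EPCAM+ cells (9.71%), against 8.45% of all cells that passed. No barcode was an EPCAM+ cell in more than 1 library. In E16-ZZ, 39.2% of the deposited barcodes exceeded the mitochondrial limit, against 1.05% to 9.15% in the other libraries. Both E16 libraries were made with Cell Ranger 3.1.0 and the other 6 with 3.0.2, which cannot be told apart from the stage.

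The stretch before the curated start of each marker gene was searched for letters that known regulators of epithelial genes read. EPCAM lies on chromosome 3 at 93169800 to 93185221, CLDN4 on chromosome 3 at 11039711 to 11053930, CLDN7 on chromosome 12 at 52612517 to 52628376 and CDH1 on chromosome 6 at 18075487 to 18155986 (RefSeq, Sscrofa11.1, the build of the files). The 200 bases before the curated RefSeq start of 3 of them are given 5′ to 3′ on the strand of the gene, with the E-box CACCTG of either strand, the letters bound by the repressors SNAI1, SNAI2 and ZEB1, in capitals.
EPCAM, chr3:93185222-93185421, minus strand: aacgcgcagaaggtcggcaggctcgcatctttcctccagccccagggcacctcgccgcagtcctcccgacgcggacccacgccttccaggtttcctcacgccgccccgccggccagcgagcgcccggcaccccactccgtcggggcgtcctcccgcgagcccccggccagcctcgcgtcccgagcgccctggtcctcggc
CDH1, chr6:18155987-18156186, minus strand: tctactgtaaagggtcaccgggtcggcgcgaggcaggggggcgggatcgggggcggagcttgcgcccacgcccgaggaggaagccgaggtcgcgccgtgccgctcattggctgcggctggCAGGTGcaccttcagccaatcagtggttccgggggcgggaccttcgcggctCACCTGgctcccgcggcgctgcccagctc
CLDN7, chr12:52614590-52614789, minus strand: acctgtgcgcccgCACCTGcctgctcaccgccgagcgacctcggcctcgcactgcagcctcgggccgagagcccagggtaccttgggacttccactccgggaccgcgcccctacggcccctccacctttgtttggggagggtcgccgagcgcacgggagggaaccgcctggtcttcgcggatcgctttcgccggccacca
The spans above take in longer predicted transcripts, so the windows of CLDN7 and CLDN4, set before the curated starts, lie inside them. That of CLDN7 falls in introns of the longer transcripts. The window of CLDN4 overlapped exons of predicted transcripts and is not printed. CDH1 held 2 such E-boxes, at 80 and 29 bases before its start, CLDN7 and CLDN4 held 1 each, and EPCAM held none. Of 20639 promoters of this length, 15.8% held at least 1. The AP-2 letters GCCNNNGGC stood once in EPCAM and once in CLDN7, against 18.9% of all promoters, and the grainyhead letters AACCNGTT stood in none of the 4, against 1.00% of all promoters. The windows of EPCAM and CLDN7 held 76.0% and 71.5% G or C, against a median of 59.0% over all promoters. The rates over all promoters do not allow for this. A match is a description of letters and no measure of binding.

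EPCAM+ cells fell steeply in share with stage. They made up 11.5% of cells in E16-ZZ (726 of 6297) and 10.1% in E16-DZ (1073 of 10603). At E18 they made up 2.47% in ZZ (254 of 10301) and 0.850% in DZ (88 of 10347). At E21 the shares were 0.267% (31 cells) and 0.108% (11 cells), and at E28 10 of 10869 cells (0.0920%) met the rule in ZZ and 0 of 12173 did in DZ, so that a share up to 0.0246% (3 counts of the total) remains possible. Every early library (E16 and E18) lay above every late one (E21 and E28).

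The mean share was 6.24% ± 5.36 (SD, n = 4) in early and 0.117% ± 0.111 (SD, n = 4) in late libraries, a difference of -6.12 percentage points (exact two-sided permutation test over libraries, p = 0.0286, the smallest p that 4 against 4 allows). Without the E16 libraries the difference was -1.54 points (exact permutation test, p = 0.0667). Without the E28 libraries it was -6.05 points (exact permutation test, p = 0.133). Neither of these 2 designs, 2 libraries against 4, allows a p under 0.0667. Leaving out any 1 of the 4 late libraries gave differences of -6.09 to -6.17 points with an exact permutation p = 0.171.

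The same genes were looked for in cells that should lack them. Cells with at least 3 of 8 endothelial genes met the rule in 29 of 668 cells in E16-ZZ (4.34%, exact 95% interval 2.93 to 6.18) and 52 of 1213 in E16-DZ (4.29%, 3.22 to 5.58), at median depths of 10014 and 7603 UMIs. Those shares lie below the 11.5% (10.8 to 12.3) and 10.1% (9.55 to 10.7) of all cells at E16. At E18 the endothelial share was 1.67% (0.616 to 3.60, 6 of 359 cells) in ZZ and 0.487% (0.0590 to 1.75, 2 of 411 cells) in DZ, and those intervals include the shares of all cells, so at E18 the raw share could not be told from this background. In the late libraries, ZZ before DZ at E21 and at E28, 0 of 157, 74, 101 and 85 endothelial cells met the rule, which allows up to 1.91%, 4.05%, 2.97% and 3.53%. With each cell thinned to 1500 UMIs, 2.63% and 2.92% of cells met the rule at E16, against 0.915% and 0.760% of the endothelial cells, and 0.394% and 0.184% did so at E18, against 0 of 349 and 0 of 407, which allow up to 0.860% and 0.737%. Limits for 0 cells take 3 counts of the total, and intervals and limits cover counting error only.

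**Figure D1:**
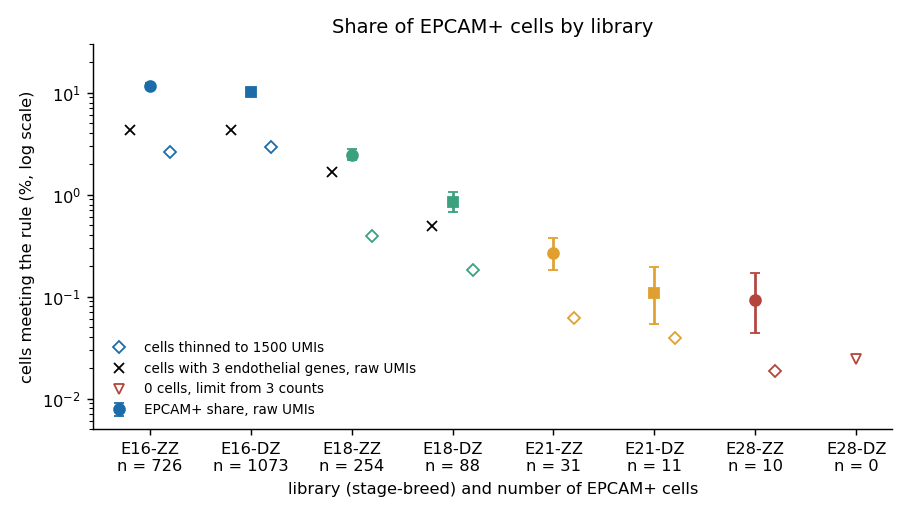
Share of cells that met the rule in each library on a log scale, with exact 95% counting intervals; open diamonds show the share after thinning to 1500 UMIs, crosses the share among cells with 3 endothelial genes, and the open triangle the limit that 0 cells allow. The filled points fall from 11.5% in E16-ZZ to 0.0920% in E28-ZZ.

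Between the breeds, the share was 3.59% in ZZ and 2.77% in DZ on average, and it was lower in DZ in 4 of 4 stages. The paired difference of -0.819 points gave p = 0.13 in an exact permutation test of signs, the smallest that 4 pairs allow. After thinning to 1500 UMIs the difference was 0.0113 points (exact permutation test, p = 1.00).

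CLDN7 was the partner found most often. It was present in 86.9% of EPCAM+ cells, CLDN4 in 73.9% and CDH1 in 29.1%. CLDN4 was seen in 82.1% and 75.0% of the cells at E16 and in 50.4% and 54.5% at E18, while CLDN7 kept to 88.4% and 86.4% against 88.2% and 84.1%. In E21-ZZ CDH1 was present in 54.8% of 31 cells, against 23.2% to 32.7% in the 4 early libraries, 27.3% of 11 cells in E21-DZ and 50.0% of 10 cells in E28-ZZ. All 3 partners were found in 468 cells, 2 of them in 1034 and 1 in 691. EPCAM itself stood at a median of 3 UMIs and a maximum of 17. Raising the rule to 2 UMIs of EPCAM and 2 partner genes left 1191 cells.

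The threshold cut through a gradient. Just inside it stood 209 cells with 1 UMI of EPCAM and 1 UMI of a single partner, 40 and 107 of them in ZZ and DZ at E16 and 37 and 16 at E18. SPINT2, a membrane-anchored inhibitor of serine proteases, was found in 27.4% ± 6.40 (SD over the 4 early libraries, cells thinned to 1500 UMIs) of all EPCAM+ cells, 13.5% ± 4.95 of those just inside, 6.46% ± 3.29 of cells with EPCAM and no partner and 1.22% ± 0.903 of cells with none of the 4 genes. ESRP1, a splicing factor of epithelial cells, was found in 8.45% ± 1.44, 6.32% ± 1.71, 0.434% ± 0.345 and 0.119% ± 0.0858 of the same sets. VIM, the intermediate filament of mesenchymal cells, ran the other way with 30.5% ± 9.49, 54.4% ± 12.0, 75.3% ± 5.96 and 78.3% ± 4.11. Cells just inside the threshold were thus near all EPCAM+ cells in ESRP1 and midway in VIM.

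Simple keratins were also common outside EPCAM+ cells. KRT8 was found in 81.5% ± 17.7 of EPCAM+ cells and in 52.0% ± 16.3 of cells with none of the 4 genes, both over the 4 early libraries at 1500 UMIs. A further 6801 cells had KRT8, KRT18 and a HAND gene but no EPCAM. Those cells were chosen by KRT8, so its share of 93.2% ± 0.412 at 1500 UMIs shows only the loss from thinning. Of those cells, 83.4% ± 7.49 held VIM, while 1.48% ± 1.14 held SPINT2 and 0.129% ± 0.0890 ESRP1. COL3A1, a fibrillar collagen, was found in 73.1% ± 14.0 of them and in 15.4% ± 1.83 of EPCAM+ cells.

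**Figure D2:**
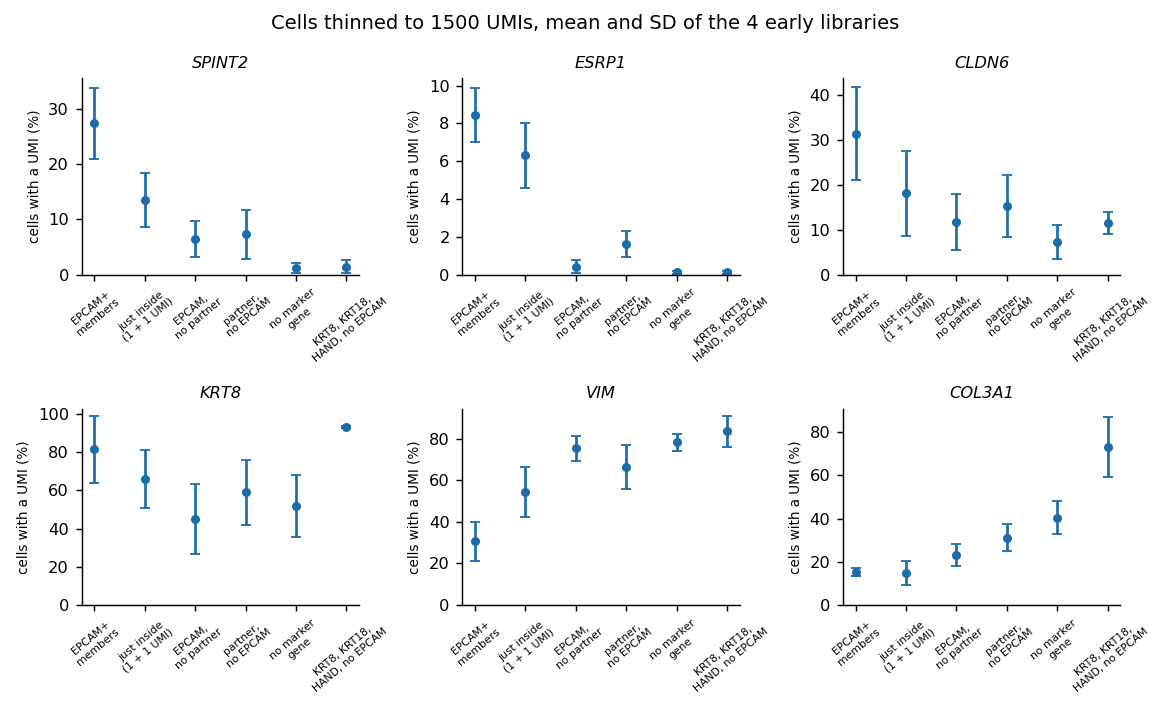
Percent of cells with a UMI of 6 genes, after thinning each cell to 1500 UMIs, in 6 sets of cells: all EPCAM+ cells, those just inside the rule, those with EPCAM or a partner alone, those with none of the 4 genes, and those with KRT8, KRT18 and a HAND gene without EPCAM; points are means and bars SDs of the 4 early libraries. SPINT2 falls from 27.4% to 1.22% and VIM rises from 30.5% to 78.3% between EPCAM+ cells and cells with none of the genes.

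Set against all other cells of the same library, EPCAM+ cells carried a compact set of epithelial genes. UMIs were summed over the cells and scaled to CPM, the UMIs of a gene per 1000000 UMIs of the summed cells, and ratios were taken after adding 10 CPM. The 5 libraries with at least 20 EPCAM+ cells (both E16, both E18 and E21-ZZ) entered. Because the rule chose the cells in this contrast, the ratios are a description with no test. Over 2-fold higher in each of the 5 libraries were 49 of 9920 genes (0.494%), and over 2-fold lower were 42 (0.423%).

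SPINT2 led, with 282, 267, 186, 220 and 425 CPM in EPCAM+ cells of both E16 libraries (ZZ, then DZ), both E18 libraries and E21-ZZ, against 15.7, 23.2, 6.06, 4.80 and 2.59 CPM in the rest. Its smallest log2 ratio was 3.06. SPINT1, a second inhibitor of the same family, followed at 2.56, and its targets, the membrane serine proteases PRSS8 and ST14, had smallest log2 ratios of 1.90 and 1.52. Both inhibitors and both proteases were over 2-fold higher in each of the 5 libraries. WNT6, a ligand made by surface ectoderm, stood at 51.7 to 76.6 CPM in the 4 early libraries and at 718 CPM in E21-ZZ, against 0.529 to 4.52 CPM in the rest.

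ESRP1 ran from 51.8 to 107 CPM, against 0.174 to 2.69 CPM in the rest, and RAB25, a GTPase of apical recycling, from 30.6 to 161 CPM, against 0.561 to 4.94 CPM. CLDN6, an embryonic claudin, stood at 160 to 377 CPM against 3.23 to 96.5 CPM. GATA3, a factor of ectoderm and nephric duct, stood at 60.8 to 104 CPM against 9.42 to 27.8 CPM. PDGFA, a growth factor that signals to mesenchyme, stood at 65.5 to 107 CPM early and 361 CPM in E21-ZZ, against 13.6 to 22.6 CPM. Other genes among the 20 with the highest smallest ratios were CST6, S100A1, STARD10, FREM2, PLPP2, MARVELD2, PTGES, ENSSSCG00000035724 and ENSSSCG00000024911, with smallest log2 ratios of 1.51 to 2.04.

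By list, 7 of 13 measured epithelial membrane genes with at least 10 CPM were over 2-fold higher in every library (among them SPINT2, SPINT1, RAB25, PRSS8, ST14 and AP1M2), as were 4 of 14 tight junction genes (CLDN6, MARVELD2, OCLN and CLDN1), 2 of 9 desmosome genes (PERP and PPL), 2 of 10 epithelial regulators (among them ESRP1) and 1 of 5 keratins (KRT18). The median log2 ratios of these lists were 1.51, 1.08, 0.82, 0.80 and 1.29, against -0.02 over all genes. Among the simple keratins, the log2 ratios of the 5 libraries ran from 1.03 to 6.61 for KRT18, from 0.58 to 6.32 for KRT8 and from 0.42 to 3.66 for KRT7. Of 13 mesenchymal genes, VIM, ZEB2 and COL1A1 were over 2-fold lower in every library, with a list median of -1.32. ZEB2 is a repressor of CDH1. VIM stood at 164 to 483 CPM against 1558 to 2571 CPM.

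Blood genes were also low: HBE1, an embryonic globin, stood at 107 to 2314 CPM in EPCAM+ cells and 2735 to 9416 CPM in the rest. It stood at 424 and 1290 CPM in EPCAM+ cells at E16 (ZZ, then DZ) and at 2314 and 1563 CPM at E18. Of its UMIs in EPCAM+ cells, 2651 of 3380 in E16-ZZ and 11481 of 14779 in E16-DZ lay in 1 cluster of 122 cells. Of 8 endothelial genes, PLVAP and CLDN5 were over 2-fold lower in every library. ERBB3 was found in 75.1% to 78.3% of thinned cells in each of the sets compared, endothelial cells included, and was not read as a difference. The gene listed as KRT14 was found in 46.3% ± 18.9 of EPCAM+ cells and 22.3% ± 11.2 of cells with none of the 4 genes in the early libraries. The identity of this keratin was not settled.

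**Figure D3:**
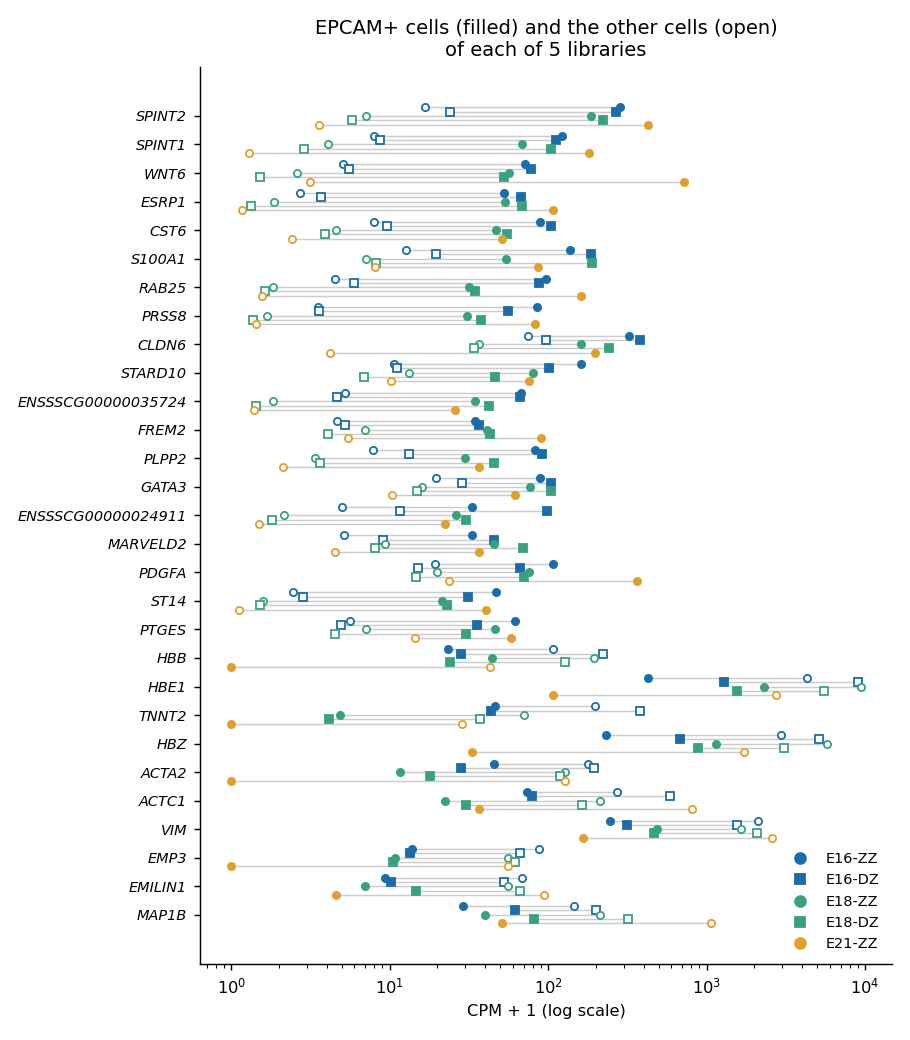
CPM plus 1 on a log scale in EPCAM+ cells (filled) and in all other cells (open) of 5 libraries, for genes with the highest smallest ratio (upper) and 10 genes at the lower end. Filled points lie to the right for each of the upper genes, as for SPINT2 with 186 to 425 CPM against 2.59 to 23.2, and to the left for VIM with 164 to 483 against 1558 to 2571.

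The label was checked against the data. EPCAM+ cells as a set held more of some epithelial genes than the rest of every library, among them SPINT2, SPINT1, CLDN6 and ESRP1, but not of most tight junction genes or epithelial regulators at over 2-fold. Of the 2193 cells, 89 also held at least 3 endothelial genes, and 209 rested on 1 UMI of each of 2 genes. The cells are therefore called EPCAM+ cells below.

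EPCAM+ cells were of several kinds. Louvain clustering of the 2193 cells, with the 4 marker genes and the mitochondrial genes left out, gave 13 clusters. A cluster was named after a list when at least 3 of the markers of that list were found in 10% of its cells at 2-fold or more over the other EPCAM+ cells. No other list could hold more of its leading genes, and its first gene could not be ACTC1, OC90 or SIX3. Those 3 genes were set by hand as going against the list met. DCN, the first gene of a cluster named below, was not among them. KRT14 and ERBB3 were left out of this count after their levels were seen. Genes that define a cluster are a description and were not tested, and their counts per library were not compared by a test.

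The largest cluster held 425 cells, 257 of E16-ZZ and 168 of E16-DZ, and none from a later stage. It was led by ENSSSCG00000009648, UPK3A, a uroplakin of urothelium, and the posterior patterning genes HOXD13 and HOXA13. HOXD13 was found in 66.1% of its cells and HOXA13 in 60.2%. IHH, a hedgehog ligand of gut epithelium, was found in 73.4%, and FOXA1 in 79.8%. It met no list and stays unnamed. Its cells were the deepest of the larger clusters, with a median of 13411 UMIs, and 79.5% of them met the stricter rule.

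A cluster of 387 cells (114 and 234 in ZZ and DZ at E16, 18 and 21 at E18) was led by VMO1, SHISA2, TNNT1, WFDC2 and GLI3, among others. VMO1 stood at 358, 325, 179 and 85.6 CPM in those libraries. PAX1, a marker of the pharyngeal pouches and of sclerotome, was found in 14.0% of its cells and NKX2-5 in 15.8%. This cluster also stays unnamed.

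The endoderm-like cluster held 273 cells, 87, 128, 38 and 20 in the same 4 libraries. It met 6 of 15 endoderm markers: FOXA1, FOXA2, FOXA3, CDX2, GATA4 and GATA6. FOXA2, the pioneer factor of endoderm, stood at 111, 171, 159 and 120 CPM. SERPINA1, a protease inhibitor of liver and yolk sac, stood at 1102, 1703, 3053 and 1168 CPM, and the liver and pancreas factor ONECUT2 at 106, 109, 300 and 200 CPM.

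Surface-ectoderm-like cells fell into separate clusters by period. The libraries were clustered together with no correction between them, so this split cannot be told apart from differences between libraries. The early one held 255 cells (98 and 124 in ZZ and DZ at E16, 26 and 5 at E18 and 1 in each E21 library) and met 4 of 9 markers (TP63, TFAP2A, WNT6 and TRIM29), none of them among its 10 leading genes. CXCL12, HAPLN1, TFAP2B and CXCL14 were among those. WNT6 stood at 277, 214 and 334 CPM in E16-ZZ, E16-DZ and E18-ZZ. The late one held 47 cells, 30 of E21-ZZ, 10 of E21-DZ and 7 of E28-ZZ, and none from E16 or E18. It met 7 of 9 markers: TP63, KRT15, TFAP2A, GRHL3, WNT6, PERP and TRIM29. DCN, KRT15, a keratin of basal epidermis, FABP5, CXCL14 and WNT7B were among its leading genes. DCN came first and was found in 91.5% of its cells, and COL1A2 was found in 80.9%. It comprised 47 of the 52 late EPCAM+ cells.

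The nephric-like cluster held 206 cells and was the largest at E18-ZZ, with 142 of 254 cells (55.9%, exact 95% interval 49.6 to 62.1), against 25 of 88 in E18-DZ, 18 in each E16 library and 3 in E28-ZZ. It met 6 of 10 nephric markers, among them PAX2, LHX1, EMX2, RET and WT1. LHX1, which is needed to form the nephric duct, stood at 154, 154, 203 and 199 CPM in ZZ and DZ at E16 and then at E18. RET, the receptor that guides duct growth, stood at 48.9 and 79.8 CPM at E16 and at 8.30 and 6.12 CPM at E18. Only 24.8% of its cells met the stricter rule.

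A cluster with 56 cells of E16-ZZ, 84 of E16-DZ, 7 of E18-ZZ and 4 of E18-DZ was led by TAC3, S100A6, GABRP, CST6, B2M and HAND1. TAC3, a tachykinin gene known from trophoblast, was found in 100% of its cells at 5245 CPM in E16-ZZ and 8496 CPM in E16-DZ. WNT6 was found in 93.4%, KRT7 in 94.7% and COL3A1 in 94.7%. VTCN1 was among its leading genes as well. No list was met with KRT14 left out. With KRT14 it would meet 3 surface ectoderm markers, at log2 folds of 1.38 for KRT14, 1.36 for TFAP2A and 2.90 for WNT6, none of them among its 10 leading genes.

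Yolk sac genes marked a pair of clusters. The visceral-yolk-sac-like one held 28 cells, 24 of them of E16-DZ, and met 11 of 12 markers, with AFP at 5797 CPM, APOA1 at 30757 CPM and TTR at 3054 CPM in that library. A larger cluster of 122 cells, 99 of them of E16-DZ, was led by globins together with APOA1, FGB, RBP4 and FETUB. HBE1 stood there at 12597 CPM in E16-ZZ and 9237 CPM in E16-DZ and APOA1 at 17890 and 20768 CPM. Its leading genes belong to both the blood and the yolk sac lists, and it stays unnamed.

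The remaining clusters were more mixed. A cluster of 210 cells met 4 of 9 neural markers but was led by the muscle actin ACTC1, and it stays unnamed. VIM was found in 83.8% of its cells, 25.2% of them were marked as doublets and 24.3% met the stricter rule. A cluster of 38 cells was led by OC90, an otoconial protein of the inner ear, at 2971 and 2097 CPM in the E16 libraries, with LMX1A and SOX10. It met 4 of 6 neural crest markers, but OC90 goes against that name. A cluster of 22 cells, 21 of them of E16-DZ, was led by SIX3, LHX2 and SIX6, factors of the forebrain and eye. The endothelial-like cluster of 29 cells met 8 of 8 endothelial markers at a median of 16012 UMIs, and 75.9% of its cells were marked as doublets.

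**Figure D4:**
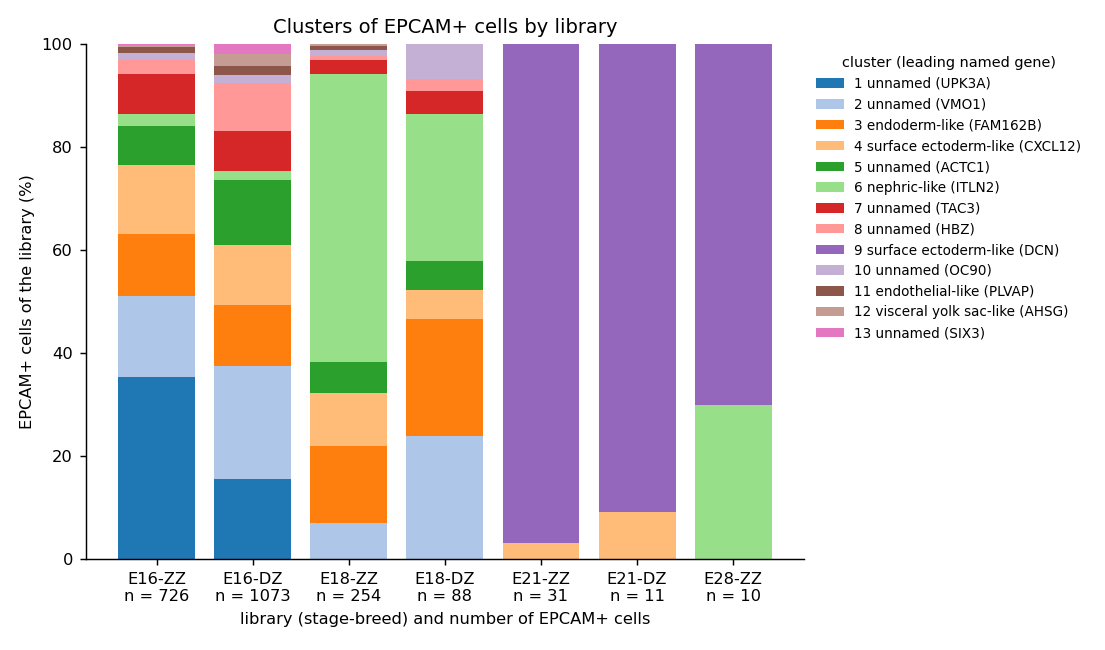
Share of the EPCAM+ cells of each library in each of 13 clusters, labelled by a list name or as unnamed with the leading gene that has a symbol; E28-DZ held no EPCAM+ cell. The late libraries consist mainly of cluster 9 (47 of 52 cells) and E18-ZZ of cluster 6 (55.9%).

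Marker lists were also applied cell by cell, without clusters. A cell was counted for a list when at least 2 of its genes, KRT14 left out, were found after thinning to 1500 UMIs. Surface ectoderm genes marked 5.10%, 5.15%, 4.38% and 9.52% of EPCAM+ cells in the early libraries (ZZ and DZ at E16, then at E18) and 51.6% (16 of 31) in E21-ZZ, 18.2% (2 of 11) in E21-DZ and 60.0% (6 of 10) in E28-ZZ. In other cells the share was 0.0254% to 0.283%. Endoderm genes marked 5.92%, 8.15%, 3.98% and 7.14% of early and 0 of 52 late EPCAM+ cells. Yolk sac genes marked 10.2%, 21.0%, 6.37% and 5.95% of early and none of the late ones. In E18-ZZ they marked 16 cells, while the pair of clusters with yolk sac genes held 2 and 1 cells there. SERPINA1, a gene of this list, stood at 3053 CPM in the endoderm-like cells of that library. The shares are thus of cells with these genes and not of yolk sac cells. Nephric genes marked 0.826%, 1.03%, 10.8% and 3.57% of early EPCAM+ cells and 3.23%, 0% and 10.0% in E21-ZZ, E21-DZ and E28-ZZ, so early and late libraries overlapped for this list.

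With E21-ZZ as the only late library of at least 20 cells, no exact permutation test over libraries could go below p = 0.20. With libraries of at least 10 cells, the mean share for surface ectoderm was 37.2 points higher in late than in early libraries (exact two-sided permutation test, 4 against 3, p = 0.0286, adjusted p = 0.114 over 8 lists). The difference was -6.30 points for endoderm (exact permutation test, p = 0.0286, adjusted p = 0.114) and -10.9 points for yolk sac (exact permutation test, p = 0.0571, adjusted p = 0.114). A split of 4 against 3 has 35 arrangements and allows no p under 0.0286, so a few lists at that floor could not pass over 8 lists. None of the 8 lists passed after adjustment, which does not show that the shares were alike.

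Genes of EPCAM+ cells were then compared between E18 and E16, the only pair of stages with 20 or more cells in every library. UMIs were summed per library and tested with edgeR's quasi-likelihood test with stage and breed as terms and Benjamini-Hochberg adjustment. The 5 libraries left 1 residual degree of freedom, so the spread was borrowed across genes. Of 11541 genes tested, 414 (3.59%) passed an adjusted p of 0.05, 137 higher (1.19%) and 277 lower (2.40%) at E18. Cell Ranger version and the mitochondrial load of E16-ZZ differed with the stage, and their part was not tested.

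Among the largest rises was LHX1, a gene of the nephric duct. LHX1 stood at 3.89 and 3.32 CPM at E16 (ZZ and DZ) and at 121 and 69.6 CPM at E18 (log2 difference 4.46 ± 0.23 SE, edgeR adjusted p = 0.00185). SIM1, a factor of nephric and hypothalamic cells, rose by 4.28 ± 0.25 and UNCX by 4.05 ± 0.27, all on the log2 scale. SIM1 and UNCX stood at 2.51 to 3.05 CPM at E16 and passed the filter on low counts through E18, so their rises are a description. In all other cells of the same libraries LHX1 differed by 0.99 (edgeR adjusted p = 0.283) and SIM1 by 2.41 (edgeR adjusted p = 0.00435). NRK, MARCH11, CAPN6, ITLN2, AK5, DCDC2 and IYD were the remaining genes among the 10 largest rises, with log2 differences of 3.92 to 4.74. NRK, MARCH11, AK5, DCDC2 and IYD stood at 0.0873 to 1.25 CPM at E16 and are a description as well.

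Of 9 nephric genes tested, 4 rose (among them LHX1, EMX2 and PAX2) and none fell, against 1.19% of all genes called higher, with a list median of 1.29 against -0.02 over all genes. EMX2 stood at 5.77 and 4.80 CPM at E16 and 69.7 and 41.1 CPM at E18, and PAX2 at 4.14 and 3.67 against 16.9 and 16.9 CPM. With the nephric-like cells left out, NRK, CAPN6, ITLN2 and SIM1 no longer passed (log2 differences of 0.81 to 1.95, edgeR adjusted p = 0.131 to 0.473), and EMX2 still rose by 1.80 (edgeR adjusted p = 0.00688). CAPN6, ITLN2 and SIM1 are leading genes of that cluster, so a smaller difference without it was built in and is a description. The difference of NRK, which was low at E16, is a description as well. LHX1, PAX2, UNCX, MARCH11, AK5, DCDC2 and IYD then fell under the filter on low counts and were not tested. The cell cycle genes CCND2 and CDKN1C rose by 1.96 and 1.80 in all EPCAM+ cells (edgeR adjusted p = 0.00229 and 0.00630), and JAG1, a Notch ligand, by 2.76 (edgeR adjusted p = 0.00229). Without the nephric-like cells those 3 differed by 0.03, -0.02 and 0.13 (edgeR adjusted p = 0.949, 0.969 and 0.856). JAG1 stood at 245 CPM in the nephric-like cluster and at 19.8 CPM in the other EPCAM+ cells. Its smaller difference without that cluster was therefore built in and is a description.

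The most posterior HOX genes were at 0 at E18. HOXD13 stood at 43.0 and 23.7 CPM at E16 and at 0 UMIs in both E18 libraries, at least 40.0-fold lower with 3 counts over both E18 libraries as the floor. HOXA13 stood at 41.5 and 20.5 CPM and at 0 UMIs, at least 36.8-fold lower. Both genes passed the filter on low counts through the E16 libraries and had to be lower at E18, so these falls are a description. The 4 HOX genes of group 13 summed to 84.5 and 44.4 CPM at E16 and 0 at E18, and the 4 of group 9 to 174 and 147 against 265 and 160 CPM. UPK3A fell from 91.3 and 12.2 CPM to 1.76 and 0 CPM (log2 difference -5.97 ± 0.36, edgeR adjusted p = 0.00185). In all other cells HOXD13 and HOXA13 were lower too, by 5.87 and 7.52. HOXA13 stood there at 29.4 and 23.9 CPM at E16 and at 0.298 and 0.0341 CPM at E18. GPRL15, TGM1, LGALS4, NPPB, CYP1A1, ENSSSCG00000017061 and ENSSSCG00000039921 completed the 10 largest falls. Of these, GPRL15, TGM1, LGALS4, NPPB and ENSSSCG00000017061 also had 0 UMIs at E18, and their falls are a description. The largest cluster, which has no E18 cell, held 328 of 343 and 243 of 272 HOXD13 UMIs in E16-ZZ and E16-DZ and 689 of 728 and 102 of 140 UPK3A UMIs. With that cluster left out UPK3A differed by -2.80 (edgeR adjusted p = 0.00128) and IHH by -1.80 (edgeR adjusted p = 0.00589). Both are leading genes of that cluster, so a smaller difference without it was built in. HOXA13, at 0 UMIs at E18 in either case, differed by -7.39, which is a description. HOXD13 fell under the filter on low counts and was not tested. LGALS4 and CYP1A1 no longer passed, though still at -5.83 and -3.36 (edgeR adjusted p = 0.0716 and 0.109).

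Most keratins tested fell. Of 6, KRT7, KRT8, KRT18 and the gene listed as KRT14 were lower, and none was higher, against 2.40% of all genes called lower. KRT8 stood at 6002 and 6801 CPM at E16 and 2475 and 3633 CPM at E18 (log2 difference -1.32 ± 0.11, edgeR adjusted p = 0.00365), and KRT7 at 261 and 148 against 41.2 and 47.4 CPM (-2.46 ± 0.25, edgeR adjusted p = 0.00766). In all other cells KRT8 differed by -1.45 (edgeR adjusted p = 0.00251). Within the endoderm-like cells alone KRT8 differed by -0.84 (edgeR adjusted p = 1.42e-14) and KRT18 by -0.91 (edgeR adjusted p = 1.66e-14), while KRT7 at -0.94 did not pass (edgeR adjusted p = 0.485). That fit had 4 libraries with 87, 128, 38 and 20 cells and borrowed its spread across genes. Its p-values are not comparable with those of all EPCAM+ cells, and a smaller one is no stronger evidence. The same holds for every fit on part of the cells. With the nephric-like cells left out KRT8 differed by -0.45 (edgeR adjusted p = 0.00385), KRT18 by -0.48 (edgeR adjusted p = 0.00584) and KRT7 by -1.74 (edgeR adjusted p = 2.74e-07).

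Of 14 epithelial membrane genes, 3 fell (among them RAB25 and PRSS8) and none rose, against 2.40% of all genes called lower. Of 15 tight junction genes 1 fell, CLDN6, and of 9 desmosome genes 1 fell, DSC2, which are single genes and no result about those lists, and none of the 11 epithelial regulators passed edgeR's test, with 5 at an unadjusted p under 0.05. ESRP1 stood at 51.8 and 66.8 CPM at E16 and 52.5 and 67.5 CPM at E18. EPCAM, which the rule used, stood at 316 and 297 against 268 and 307 CPM. Of 11 mesenchymal genes FN1 fell by 1.31 and VIM, at 243 and 314 against 483 and 468 CPM, did not pass (edgeR adjusted p = 0.0780). With the nephric-like cells left out CLDN6 at -0.28 (edgeR adjusted p = 0.358) and FN1 at -0.50 (edgeR adjusted p = 0.0593) no longer passed. DSC2, RAB25 and PRSS8 still did (edgeR adjusted p = 0.0343, 0.00930 and 0.0466). FN1 stood at 113 CPM in the nephric-like cluster, against 745 CPM in the other EPCAM+ cells, so its smaller fall without that cluster was built in. In the endoderm-like cells alone FN1 fell by 1.48 (edgeR adjusted p = 1.66e-14), and DSC2 at -0.03, RAB25 at -0.67, PRSS8 at -0.22 and CLDN6 at -0.28 did not pass (edgeR adjusted p = 0.988, 0.574, 0.925 and 0.706).

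Of 23 ligands tested, 4 fell and 1, JAG1, rose, against 2.40% of all genes called lower and 1.19% called higher. IHH fell from 62.2 and 31.2 to 2.11 and 5.27 CPM (log2 difference -4.33 ± 0.45, edgeR adjusted p = 0.00766), and CXCL12, EFNA1 and PTN fell by 1.84, 1.07 and 1.21. With the nephric-like cells left out EFNA1 and PTN, each at -0.50, no longer passed (edgeR adjusted p = 0.157 and 0.146). CXCL12, a chemokine, rose in the other cells by 1.17 (edgeR adjusted p = 0.0118), while it fell in EPCAM+ cells, and that difference was not tested. Of 24 receptors, LGR4 and NOTCH1 rose, by 1.37 and 1.31, against 1.19% of all genes called higher. With the nephric-like cells left out both lost the call at 0.69 and 0.73 (edgeR adjusted p = 0.0645 and 0.269). LGR4 and NOTCH1 stood at 119 and 32.1 CPM in the nephric-like cluster, against 38.2 and 10.3 CPM in the other EPCAM+ cells. Their smaller differences without that cluster were therefore built in and are a description. TFAP2A, a factor of surface ectoderm and neural crest, rose by 1.09 (edgeR adjusted p = 0.0254). With the largest cluster left out it differed by 0.52 and no longer passed (edgeR adjusted p = 0.0886). Of 3 heart genes tested, TNNT2 and TNNC1 fell, from 44.9 and 42.8 to 3.87 and 3.16 CPM for TNNT2, against 2.40% of all genes called lower. In the other cells TNNT2 stood higher, at 197 and 381 CPM at E16, and was also lower at E18, at 69.5 and 36.1 CPM. Among EPCAM+ cells it stood at 286 CPM in the cluster led by ACTC1 and at 10.4 CPM outside it. Whether the fall differed between EPCAM+ and other cells was not tested. Of 7 stress genes, HSPA8 and HSPB1 fell and none rose, against 2.40% of all genes called lower. All 7 had a negative difference and an unadjusted edgeR p under 0.05, with a list median of -1.49 against -0.02 over all genes. FOS stood at 786 and 404 CPM at E16 and at 82.4 and 247 CPM at E18 in EPCAM+ cells. In the other cells FOS stood at 725 and 442 against 116 and 242 CPM. HSPA8 no longer passed with the largest cluster left out (-0.19, edgeR adjusted p = 0.383) or in the endoderm-like cells alone (-0.49, edgeR adjusted p = 0.0980), and HSPB1 passed in both (edgeR adjusted p = 2.55e-09 and 0.00486).

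**Figure D5:**
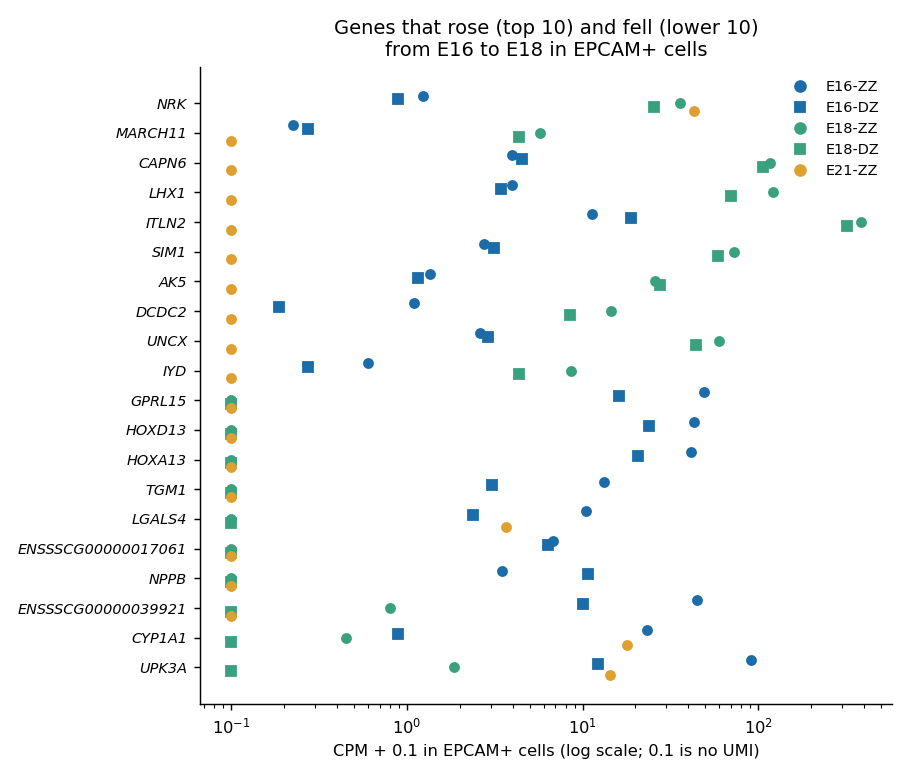
CPM plus 0.1 on a log scale in the EPCAM+ cells of 5 libraries for the 10 largest rises (upper) and 10 largest falls (lower) from E16 to E18; 0.1 stands for no UMI. The E18 libraries lie above those of E16 for LHX1 (121 and 69.6 against 3.89 and 3.32 CPM) and at 0 for HOXD13.

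Without the E18-ZZ library, which held 142 of the 206 nephric-like cells, and with no breed term, 131 genes passed (64 higher and 67 lower), of which 111 were among the 414. Without E16-DZ, likewise with no breed term, 941 passed, of which 394 were among the 414. With nephric-like cells left out 824 passed, of which 245 were among the 414 (384 of those were tested and 9 changed sign). Within endoderm-like cells alone 69 did, of which 36 were among the 414 (250 of those were tested and 33 changed sign).

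Between the breeds no gene passed. The same fit gave 0 of 11541 genes for DZ against ZZ with stage as a term (0%), with 1021 genes at an unadjusted p under 0.05, and DESeq2 called 2. Counts under other settings ran from 0 to 234.

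Late EPCAM+ cells could be compared with early ones only with the minimum lowered to 10 cells, which brought in E21-DZ with 11 cells and E28-ZZ with 10. The late side then rested on 52 cells and on 279801, 93354 and 95698 UMIs. Of 8845 genes, 480 (5.43%) passed edgeR's test, 269 higher (3.04%) and 211 lower (2.39%) in late cells. Without E21-ZZ 84 genes passed, without E21-DZ 121 and without E28-ZZ 170.

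Skin genes were higher in late cells. Of 8 surface ectoderm genes tested, 5 were higher (KRT15, PERP, TP63, TRIM29 and WNT6) and none lower, against 3.04% of all genes called higher, with a list median of 2.63 against -0.07 over all genes. KRT15 and TP63 were low in every early library and passed the filter on low counts through the late ones. TRIM29 stood at 6.40 CPM in EPCAM+ cells outside the late surface-ectoderm-like cluster. Genes that entered through the late libraries had to be higher there, so their rises, the count and the median are a description. KRT15 stood at 0 to 0.349 CPM in the early libraries and at 39.3, 32.1 and 533 CPM in E21-ZZ, E21-DZ and E28-ZZ (log2 difference 8.93 ± 1.13), and E28-ZZ held 51 of its 65 late UMIs. TP63, the factor that keeps basal epidermis, stood at 2.63 to 8.43 CPM early and at 32.2, 53.6 and 62.7 CPM late (3.38 ± 0.57). SERPINB5, an inhibitor-like serpin of epithelia, NFIB and KREMEN2 were also among the 10 largest rises, and in all other cells of the same libraries NFIB and KREMEN2 were higher too, by 4.25 and 5.00 (edgeR adjusted p = 0.00495 for both).

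Of 19 ligands tested, 6 were higher in late cells and none lower: WNT6, WNT7A, WNT7B, WNT9B, PDGFA and JAG2. The share of all genes called higher was 3.04%. WNT7A, WNT9B and JAG2 stood at 3.65, 4.90 and 4.81 CPM in EPCAM+ cells outside the late surface-ectoderm-like cluster. These genes and WNT7B passed the filter on low counts through the late libraries and had to be higher there. Their rises and the count of 6 are therefore a description. WNT6 stood at 51.7 to 76.6 CPM in early and at 718, 396 and 669 CPM in late libraries (log2 difference 3.06 ± 0.27, edgeR adjusted p = 0.000127). WNT7B stood at 1.00 to 4.22 CPM and at 96.5, 85.7 and 41.8 CPM (5.65 ± 0.54), and WNT7A and WNT9B were higher by 3.67 and 2.28. WNT9B passed in 7 of 14 alternatives of processing (adjusted p up to 0.227) and JAG2, with 0 UMIs in E28-ZZ, in 9 of 13 (up to 0.435), while WNT6 and PDGFA passed in 14 of 14. PDGFA was higher by 2.09 ± 0.23 (edgeR adjusted p = 0.000535). Of 23 receptors, FGFR2 and DDR1 were higher, FGFR2 in 12 and DDR1 in 9 of 14 alternatives (adjusted p up to 0.103 and 0.201). In all other cells of the same libraries WNT6 differed by 0.16 (edgeR adjusted p = 0.903).

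CLDN1, a claudin of the skin barrier, was higher by 2.89 ± 0.27 (edgeR adjusted p = 0.000144) and the epithelial regulator OVOL2 by 2.94 ± 0.54. OVOL2 stood at 3.91 CPM in EPCAM+ cells outside the late surface-ectoderm-like cluster. It passed the filter on low counts through the late libraries, so its rise is a description. Of 7 mesenchymal genes tested, COL1A2, COL3A1 and SNAI2 were higher and FN1 was lower, with a list median of -0.59. Over all genes 3.04% were called higher and 2.39% lower. COL1A1 at -1.73 and CDH2 at -1.54 did not pass (edgeR adjusted p = 0.299 and 0.0535). COL1A2 passed in 14 of 14 alternatives, SNAI2 in 12 and COL3A1 in 5 (adjusted p up to 0.335). SNAI2 stood at 4.76 to 9.86 CPM early and at 31.3 to 64.3 CPM late. It passed the filter on low counts through the late libraries, so its rise is a description.

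Endoderm and yolk sac genes that passed the filter on low counts did so through the early libraries. Of 15 endoderm genes 9 were tested, and all 9 had 0 UMIs in the 3 late libraries. Genes that entered in this way had to be lower in late cells, so their differences are given as a description. FOXA1 was at least 9.93-fold lower and FOXA2 at least 4.75-fold, with 3 counts over the late libraries as the floor. HNF4A, an endoderm gene that was not tested, held 1 UMI in E21-ZZ. SERPINA1 was at least 47.7-fold lower, TAC3 at least 79.3-fold and AFP at least 21.9-fold, all at 0 UMIs in late cells. Of 7 yolk sac genes tested 5 had 0 late UMIs, and APOA1 and RBP4 held 1 UMI each. The globins HBE1 and HBZ were lower in late cells and HBB had 0 late UMIs. In the other cells of the same libraries SERPINA1 (-12.18), AFP (-9.32), TAC3 (-3.31), HBB (-1.94) and HBZ (-1.25) were lower (edgeR adjusted p = 0.0109, 0.0140, 0.0140, 0.0109 and 0.0410), and HBE1 at -1.09 did not pass (edgeR adjusted p = 0.0514). HBE1 and HBZ passed in 14 of 14 alternatives. Of the genes higher in late cells, TP63 passed in 9, PERP in 10 and OVOL2 in 11 of 14 (adjusted p up to 0.173, 0.170 and 0.134).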

How the data were processed

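The authors deposited filtered 10x Chromium 3′ v3 matrices of UMI counts per gene and cell, made with Cell Ranger against Sscrofa11.1 with Ensembl 98 genes. Reads were not reprocessed. Groups came from the sample labels. The members and gene lists were chosen with earlier results of these data known. Doublets were scored with Scrublet as in scanpy 1.11.5 and kept, with removal as an alternative. Counts of EPCAM+ cells were summed per library and tested in edgeR 4.0.16 by the quasi-likelihood test with Benjamini-Hochberg adjustment, after TMM scaling and the filterByExpr filter on low counts, in libraries with at least 20 such cells (10 for late against early, since no late library but E21-ZZ reached 20). DESeq2 1.42.0 was an alternative. Named genes were those of the fixed lists, the 20 with the highest smallest ratio against other cells, the 10 largest rises and 10 largest falls past an adjusted p of 0.05 whose libraries did not overlap, and the 10 leading genes of each cluster. PAX1, NKX2-5 and other genes named inside clusters belong to the lists. Clusters came from Louvain at a resolution of 0.6. Shares were compared by exact permutation over libraries, and intervals are Clopper-Pearson. The scripts were tested on simulated data. Comparisons of E21 with E18 and of E28 with E21 were not run because too few cells met the rule. Some members of the lists are counted but not reported here by name.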

Additional observations from a re-analysis of the deposited data

Results flagged for a closer look

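Of 31 sets of early libraries examined for a single library far from the other 3, 4 stood out, and chance alone gives about 1 in 20. E18-DZ held 9.52% of EPCAM+ cells with at least 2 surface ectoderm genes, against 5.10%, 5.15% and 4.38%. E18-DZ also held 6.82% of its EPCAM+ cells in the cluster led by OC90, against 1.52%, 1.68% and 1.18%. E16-DZ held 1.96% in the cluster led by SIX3, against 0.138%, 0% and 0%. E16-DZ held 0.0936% of EPCAM+ cells with 2 notochord genes, which is 1 cell, against 0% in the others. Outside the limits on genes, UMIs and mitochondrial share, a further 557 barcodes met the marker genes, 496 of them over the mitochondrial limit and 61 over 30000 UMIs, and 338 of them in E16-ZZ. These barcodes enter no main comparison, and those outside the mitochondrial limit alone enter only the alternative with no such limit.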

How the results depend on the processing

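The fall in the share of EPCAM+ cells kept its direction under every alternative run, with differences of -7.92 to -4.36 points when 1 library was left out. The fall was smaller in points after thinning to 1500 UMIs, with shares of 0.184% to 2.92% early and 0% to 0.0613% late. It was also smaller under the stricter rule, with 0.338% to 6.97% early and 0% to 0.138% late. Without the E16 libraries (-1.54 points, exact permutation p = 0.0667) and without the E28 libraries (-6.05, p = 0.133) 2 libraries stood against 4, a design that allows no p under 0.0667. Without any 1 late library the exact permutation p was 0.171. The breed difference in share became 0.0113 points after thinning. For the marker lists, a minimum of 10 cells gave 37.2 points for surface ectoderm and -6.30 for endoderm, both at an unadjusted exact permutation p = 0.0286, and turned the nephric difference of -0.820 points to 0.362, and leaving out E18-ZZ turned it to 1.42. Leaving out 1 library gave -1.89 to 1.42 points for nephric genes. For E18 against E16, the 137 higher and 277 lower genes became 44 and 111 with DESeq2, 530 and 1088 with no filter on low counts, 366 and 692 with RLE scaling, 267 and 437 with a minimum of 10 cells, 344 and 654 with doublets removed, 389 and 760 without cells with 3 endothelial genes, 322 and 502 without nephric-like cells, 324 and 743 without the largest cluster, 21 and 48 in endoderm-like cells only and 120 and 185 with no breed term. When 1 library was left out they ran from 64 to 362 and from 67 to 579, lowest without E18-ZZ and highest without E16-DZ, both of those fits also without the breed term. For DZ against ZZ, the count of 0 became 2 with DESeq2, 234 with no filter, 49 with RLE scaling, 26 with a minimum of 10 cells, 51 with doublets removed, 8 under the stricter rule, 75 without cells with 3 endothelial genes, 67 without nephric-like cells and 5 in endoderm-like cells only. It was 0 without E21-ZZ, and leaving out another library left no residual degrees of freedom. For late against early, the 480 became 734 with DESeq2, 1054 with no filter, 177 with doublets removed and 135 without nephric-like cells, and 84 to 540 when 1 library was left out. With doublets removed and without nephric-like cells, E28-ZZ kept 9 and 7 cells and fell under the minimum of 10, so both counts also lack that library, whose loss alone gave 170. The cause of these shifts was not tested. The alternatives without endothelial-gene cells, without nephric-like cells, without the largest cluster, in endoderm-like cells only, with no breed term and with no mitochondrial limit were chosen after seeing the data. The breeds were paired by stage. No paired analysis was possible by replicate number because each group of stage and breed is 1 library and the labels give no shared numbers. The late side is limited by its number of cells, since 52 cells carried all values.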
